A study of Mus musculus with 12 samples.

Results

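Expression of 10 genes of the muscle protein breakdown program was examined in the mouse EDL (extensor digitorum longus), which lies in the lower leg and is built mainly of fast-twitch fibers. They are the FoxO transcription factor genes Foxo1, Foxo3 and Foxo4, the ubiquitin ligase genes Fbxo32, Trim63 and Fbxo30, and the autophagy genes Map1lc3a, Gabarapl1, Sqstm1 and Bnip3. They were taken by name from an expression table of 17752 genes, each name matched 1 row, and all 10 passed the filter of a mean of at least 0.5 FPKM (fragments per kilobase of transcript, scaled to depth). RNA-seq was performed on EDL of male mice in 4 groups of 3 libraries, with 12 libraries in all. The groups labelled Ctrl are littermates without Cre, which the paper calls wild-type, either sedentary or given running wheels from 8 weeks of age. The paper does not state whether these controls carry the floxed allele. The groups labelled Nrip1KO are strNrip1-/- mice, sedentary or trained in the same way, which carry a floxed Nrip1 allele made on C57BL/6J together with a Cre transgene driven by the muscle creatine kinase promoter, so that deletion is aimed at heart and skeletal muscle fibers and not at the other cells of the muscle. The Cre mice were of C57BL/6JN background. Mice that ran too little were removed by the study, and the wheels were taken away before the endpoints. Nrip1 encodes RIP140, a corepressor of nuclear receptors, and the comparisons ask what differs in muscle when it is targeted, with and without training.

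FoxO factors are held out of the nucleus when insulin and IGF1 signal through AKT, and enter it when that signal falls, as in fasting, denervation or disuse. In muscle nuclei they raise genes for proteasomal breakdown, of which the ligases atrogin-1 (Fbxo32) and MuRF1 (Trim63) are the best known and are therefore called atrogenes, and genes for autophagy, in which membranes coated with LC3 and GABARAP proteins carry cargo to the lysosome. Glucocorticoids act on several of the same genes through the glucocorticoid receptor.

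The targeted gene was examined first, because it is the gene that the labels name. Nrip1 (ENSMUSG00000048490) was at 3.60, 2.55 and 3.84 FPKM in the libraries labelled Ctrl sedentary and at 15.5, 16.3 and 14.9 FPKM in those labelled Nrip1KO sedentary. It was at 2.53, 4.76 and 3.56 FPKM in labelled Ctrl trained and at 20.7, 14.9 and 16.6 FPKM in labelled Nrip1KO trained. Nrip1 was therefore higher, not lower, in every library labelled Nrip1KO, with a log2 difference of 2.08 (SE 0.198) in sedentary and 2.14 (SE 0.198) in trained libraries. Per the paper, the loxP sites lie on both sides of the exon that holds the start and stop codons. Gene-level values do not show which part of the transcript the fragments came from. Other transcripts separated the labelled genotypes as well. Myh4, the myosin of the fastest fibers, was at 8442 to 10521 FPKM in labelled Ctrl and 6582 to 8385 FPKM in labelled Nrip1KO sedentary libraries, and at 10101 to 10783 against 7045 to 8893 FPKM in trained libraries. Tie1, an endothelial receptor gene, was at 9.18 to 10.3 against 11.7 to 11.9 FPKM in sedentary and at 9.19 to 10.9 against 13.2 to 14.5 FPKM in trained libraries, so that Myh4 was lower and Tie1 higher in every labelled Nrip1KO library than in every labelled Ctrl library of the same state. Both genes were picked after their values were seen. The paper reports Tie1 as raised in strNrip1-/- EDL, from RNA-seq of this training study, the direction seen here by label. That result rests on the same libraries and labels, so this match cannot show whether the labels are right. By staining, the paper reports fewer fibers with the fastest myosin in strNrip1-/- EDL, and Myh4 was lower here by label. Whether labels were exchanged was not tested. Nrip1 was higher where its deletion is labelled, so each direction given here between genotypes is between libraries labelled Ctrl and libraries labelled Nrip1KO.

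Effective depth corresponded to 20.0 M to 29.2 M fragments per library. Libraries had been scaled between each other, so this is not the number of fragments sequenced. The effective depth was read on an effective length, which is the transcript length less 325 to 375 nt. On 2 kb of effective length, 2 FPKM rested on about 80.2 to 117 fragments. A transcript 2 kb long had fewer. The table carried the defining transcripts of fast muscle at high levels in every library, with Acta1 between 13067 and 25223 FPKM and Ckm between 9935 and 15481 FPKM. Other cell types were present at lower levels, and of the 9 marker lists examined no gene was at 0 in any library. In bulk tissue, fewer cells of a type and less RNA per cell cannot be told apart.

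The promoters of Trim63 and Bnip3 are shown because these genes had the largest fitted differences among the 10 members between sedentary libraries of the labelled genotypes. Both sequences are from RefSeq on GRCm38.p6, read 5′ to 3′ along the gene's strand and ending near its start. Trim63 (ENSMUSG00000028834) is a plus-strand gene of chromosome 4, from 134315120 to 134329629, and the 250 bases before its start are chr4:134314870-134315119. The capitals mark a match to the palindromic glucocorticoid receptor motif, in which inverted repeats are parted by 3 bases, followed without a gap by the FoxO motif GTAAACA, on the opposite strand as TGTTTAC. Bnip3 (ENSMUSG00000078566) is a minus-strand gene of chromosome 7, from 138890836 to 138909519 in GENCODE, and 230 of the 250 bases before its RefSeq start, at 138909506, are chr7:138909527-138909756. The capitals mark the E-box CACGTG, which holds the hypoxia motif ACGTG on each strand in the same letters.
Trim63: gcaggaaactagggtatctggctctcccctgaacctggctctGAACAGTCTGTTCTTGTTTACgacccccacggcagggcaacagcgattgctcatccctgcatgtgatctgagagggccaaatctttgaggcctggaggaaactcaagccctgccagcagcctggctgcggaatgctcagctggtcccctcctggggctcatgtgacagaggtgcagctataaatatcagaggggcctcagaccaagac
Bnip3: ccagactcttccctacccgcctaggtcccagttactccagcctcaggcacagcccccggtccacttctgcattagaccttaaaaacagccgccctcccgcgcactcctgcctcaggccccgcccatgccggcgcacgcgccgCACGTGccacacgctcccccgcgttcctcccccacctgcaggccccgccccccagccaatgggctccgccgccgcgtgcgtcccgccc

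Promoter windows of 250 bases before to 50 bases after the start were found for 7 of the 10 members, all but Fbxo32, Foxo4 and Map1lc3a. Searched on both strands, GTAAACA was in 1 of these 7 windows, that of Trim63, and in 3.65% of all 32851 windows in the table. The glucocorticoid receptor motif was likewise in the Trim63 window and in 16 windows of the whole table (0.0487%). Its last matched base lies 195 bases before the Trim63 start, and the FoxO match spans 194 to 188 bases before it. The E-box was in the Bnip3 window, 108 to 103 bases before the RefSeq start at 138909506, and in 7.15% of all windows, and ACGTG was in 19.6%. These matches describe the letters of the windows and do not show that a factor was bound.

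FPKM is scaled to transcript length, so levels can be set side by side between genes. Averaged over the 12 libraries, Sqstm1, which encodes the cargo receptor p62, was the most abundant at 289 FPKM, followed by the LC3 gene Map1lc3a at 230 FPKM. Bnip3, a receptor that tethers mitochondria to the autophagy membrane, averaged 127 FPKM, and Trim63 91.2 FPKM. Foxo4 averaged 64.7 FPKM, Gabarapl1 36.4 FPKM and Fbxo32 16.4 FPKM. Foxo3 at 4.43 FPKM, Foxo1 at 3.52 FPKM and Fbxo30, a ligase linked to BMP signaling in atrophy, at 2.65 FPKM were the lowest. Among neighbors in this order, the ranges over the 12 libraries overlapped for Sqstm1 and Map1lc3a, for Bnip3 and Trim63, for Trim63 and Foxo4, for Foxo3 and Foxo1, and for Foxo1 and Fbxo30, and did not overlap elsewhere.

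Foxo4 was the main FoxO transcript. It made up between 75.5% and 86.6% of the summed FPKM of Foxo1, Foxo3, Foxo4 and Foxo6, and Foxo6, a family member outside the 10, averaged 5.43 FPKM. Map1lc3a made up 43.8% to 49.9% of the summed FPKM of the LC3 and GABARAP family genes Map1lc3a, Map1lc3b, Gabarap, Gabarapl1 and Gabarapl2. Of the other family genes, named here for comparison after their values were seen, Gabarap averaged 102 FPKM and Map1lc3b 81.6 FPKM. Trim63 was 3.72 to 7.72 times as abundant as Fbxo32. This ratio was 6.0, 6.81 and 6.71 in labelled Ctrl sedentary and 6.05, 7.72 and 7.05 in labelled Ctrl trained libraries. It was 6.38, 4.64 and 4.81 in labelled Nrip1KO sedentary and 4.89, 3.72 and 3.99 in labelled Nrip1KO trained libraries, so only the first labelled Nrip1KO sedentary library lay within the range of the libraries labelled Ctrl.

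**Figure D1:**
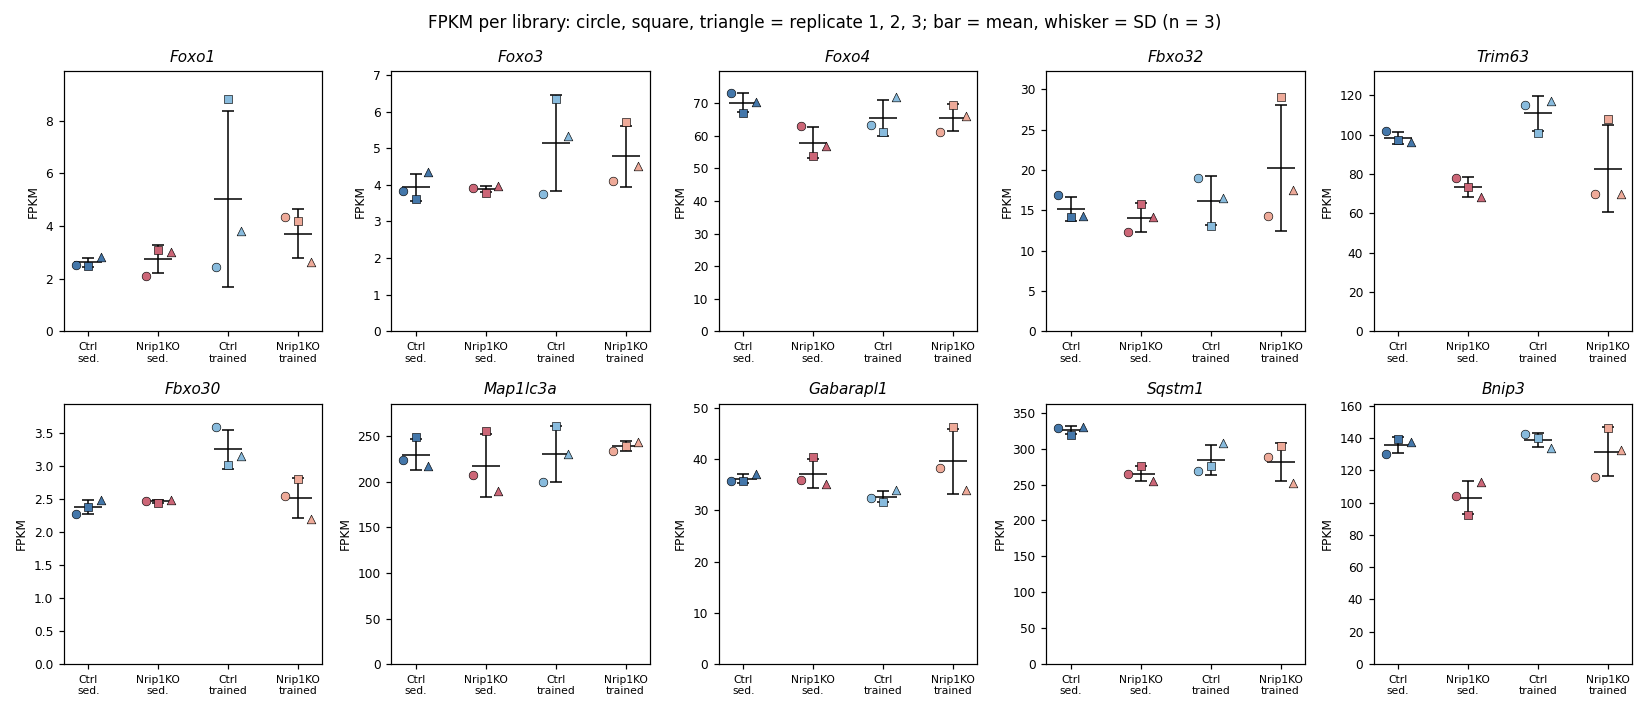
FPKM (vertical axis, from 0) of the 10 members in each library, by group. Circles, squares and triangles are replicates 1, 2 and 3, the bar is the group mean and the whisker is the SD (n = 3). Bnip3, Trim63, Sqstm1 and Foxo4 lie lower in all 3 libraries labelled Nrip1KO sedentary than in all 3 labelled Ctrl sedentary, and single trained libraries stand high for Foxo1 (8.81 FPKM) and Fbxo32 (29.1 FPKM).

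The first comparison asked how the members differ between the labelled genotypes in sedentary muscle. Bnip3 was the 1 member of 10 that passed the threshold, against 3.51% of all 12744 genes tested. It was lower in labelled Nrip1KO muscle, as were 1.59% of all genes. Values were compared with limma on log2(FPKM + 0.5), and a gene was called at a Benjamini-Hochberg adjusted p under 0.05 with a fold change over 1.2. At an unadjusted p under 0.05, 4 of 10 members passed, namely Bnip3, Trim63, Sqstm1 and Foxo4, against 16.3% of all genes. The median log2 difference of the members was -0.097, with 7 below and 3 above 0, and that of all genes was -0.001.

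Bnip3 was at 130, 139 and 138 FPKM in labelled Ctrl sedentary muscle and at 104, 92.4 and 113 FPKM in labelled Nrip1KO sedentary muscle. All 3 labelled Nrip1KO libraries lay below all 3 labelled Ctrl libraries. The level fell from 136 ± 4.95 to 103 ± 10.3 FPKM (SD, n = 3), a log2 difference of -0.40 (SE 0.0933), or 1.32-fold (limma, Benjamini-Hochberg adjusted p = 0.04105). The 95% interval ran from -0.60 to -0.19. The call was marginal. It was lost on leaving out any 1 of the 3 libraries labelled Ctrl sedentary (adjusted p = 0.09746, 0.1244 and 0.1291 for replicates 1, 2 and 3) or replicate 1 or 2 of those labelled Nrip1KO sedentary (0.09645 and 0.1058), although every such fit gave a lower level in labelled Nrip1KO muscle. It was also lost on leaving out any 1 of the 3 labelled Ctrl trained libraries (0.06048, 0.05127 and 0.05919) or replicate 3 of labelled Nrip1KO trained (0.0681), which enter only through the shared estimate of the spread. With the other 3 libraries left out in turn it was kept (0.02921 to 0.0353).

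Trim63, Sqstm1 and Foxo4 had the same arrangement without passing the adjusted threshold. Trim63 was at 102, 97.0 and 96.2 FPKM in labelled Ctrl sedentary and at 78.2, 73.4 and 68.0 FPKM in labelled Nrip1KO sedentary libraries. Its log2 difference of -0.42 (SE 0.145) was larger than that of Bnip3, but so was its SE (limma, adjusted p = 0.1589). That SE rests on the spread within all 4 groups. The SD of Trim63 was 2.90 and 5.08 FPKM in labelled Ctrl and Nrip1KO sedentary libraries. It was 8.85 and 22.1 FPKM in labelled Ctrl and Nrip1KO trained libraries. Sqstm1 was at 329, 319 and 330 FPKM in labelled Ctrl sedentary and at 265, 275 and 255 FPKM in labelled Nrip1KO sedentary libraries, a log2 difference of -0.30 (SE 0.0791, adjusted p = 0.06922 with limma). Foxo4 was at 73.0, 67.1 and 70.2 FPKM in the first group and at 63.0, 53.8 and 56.9 FPKM in the second, a log2 difference of -0.28 (SE 0.0839, adjusted p = 0.1107 with limma). In these 3 genes, as in Bnip3, the groups did not overlap. Among all genes tested, 10.9% were lower in labelled Nrip1KO without overlap and 20.7% did not overlap in either direction.

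The other 6 members did not pass at an unadjusted p of 0.05. Fbxo32 was at 16.9, 14.2 and 14.3 FPKM in labelled Ctrl and at 12.3, 15.8 and 14.2 FPKM in labelled Nrip1KO sedentary libraries, so that the atrogin-1 and MuRF1 genes differed in their arrangement between the same libraries. Foxo1 lay between 2.12 and 3.09 FPKM and Foxo3 between 3.62 and 4.35 FPKM across the 6 sedentary libraries, with the labelled genotypes interleaved. Fbxo30 ranged only from 2.28 to 2.48 FPKM. The 95% interval of its log2 difference ran from -0.19 to 0.27, while that of Foxo1 ran from -0.70 to 0.79. Map1lc3a (log2 difference -0.09, SE 0.118) and Gabarapl1 (0.04, SE 0.101), both coat genes of the autophagy membrane, overlapped between the labelled genotypes as well.

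Other transcripts moved between the same libraries. The FPKM of mitochondrially encoded genes made up 42.2% to 44.6% of the summed FPKM in labelled Ctrl sedentary libraries. It made up 51.2% to 52.8% in labelled Nrip1KO sedentary libraries, against 43.7% to 47.3% in the 6 trained libraries. These shares are scaled to length and are not shares of fragments. The summed level of the 9 fast muscle markers was 126482 to 138116 FPKM in labelled Ctrl sedentary and 97024 to 124357 FPKM in labelled Nrip1KO sedentary libraries, and 8 of the 9 had a negative log2 difference. Of the 6 adipocyte markers tested, all 6 had a positive log2 difference, with a summed level over the 7 listed genes of 231 to 352 FPKM against 171 to 214 FPKM. Most of this sum was Fabp4, which averaged 190 FPKM over the 12 libraries, ahead of Cfd at 39.1 FPKM. Fabp4 overlapped between the labelled genotypes. None of these markers was called. Of the 8 endothelial markers, all 8 had a positive log2 difference, and the summed level was 144 to 174 against 136 to 142 FPKM. The part of these in the lower values of Bnip3, Trim63, Sqstm1 and Foxo4 was not tested. The 4 genes stayed lower in labelled Nrip1KO sedentary libraries after rescaling every library to 1 nuclear sum, the FPKM total without mitochondrial genes, where Bnip3 had a log2 difference of -0.32 with an adjusted p of 0.2659 (limma).

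**Figure D2:**
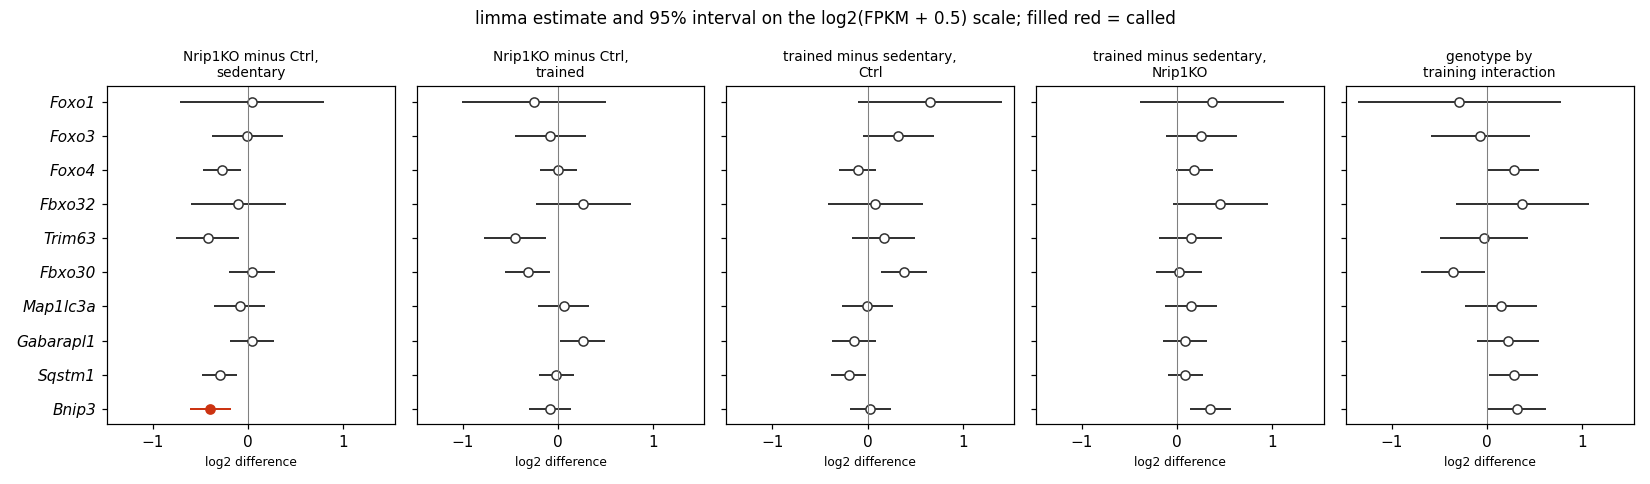
Log2 difference of each member (horizontal axis, log2(FPKM + 0.5) scale) in the 4 comparisons of group means and the interaction, with the 95% interval of the limma fit over 12 libraries. Bnip3 in sedentary libraries, at -0.40 with an interval from -0.60 to -0.19, is the 1 value that passed the adjusted threshold.

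In trained muscle, 0 of 10 members passed between the labelled genotypes with limma, against 5.98% of all genes. At an unadjusted p under 0.05, 3 of 10 passed, namely Trim63, Fbxo30 and Gabarapl1, against 21.1% of all genes. The median log2 difference of the members was -0.049 and that of all genes was 0.007. The trained and sedentary comparisons use different libraries.

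Trim63 was at 115, 101 and 117 FPKM in labelled Ctrl trained libraries and at 69.8, 108 and 69.8 FPKM in labelled Nrip1KO trained libraries. Replicates 1 and 3 of the second group lay below every labelled Ctrl library, and replicate 2 lay among them. The log2 difference was -0.45 (SE 0.145, limma adjusted p = 0.09556). Without replicate 2 of labelled Nrip1KO trained, the log2 difference was -0.66 and passed the threshold (limma, Benjamini-Hochberg adjusted p = 0.004913). With that library left out, Trim63 also passed in the sedentary comparison, where the difference stayed at -0.42 and the shared estimate of the spread changed (limma, adjusted p = 0.01772). The fast muscle markers summed to 110650 to 114422 FPKM in labelled Nrip1KO trained and to 125607 to 152233 FPKM in labelled Ctrl trained libraries, with 8 of 9 below 0. The adipocyte markers summed to 220 to 335 against 207 to 249 FPKM, again mostly Fabp4, which overlapped. The endothelial markers summed to 150 to 158 against 122.7 to 134.7 FPKM, with 7 of 8 above 0 and 1 called. Their part in the member values was not tested.

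Fbxo30 and Gabarapl1 did not overlap between the labelled genotypes in trained muscle, a property of 27.3% of all genes. Fbxo30 was at 3.58, 3.01 and 3.15 FPKM in labelled Ctrl trained and at 2.55, 2.79 and 2.19 FPKM in labelled Nrip1KO trained libraries (log2 difference -0.32, SE 0.105, limma adjusted p = 0.1017). Gabarapl1 was at 32.5, 31.7 and 33.9 FPKM in labelled Ctrl trained and at 38.2, 46.3 and 34.0 FPKM in labelled Nrip1KO trained libraries (log2 difference 0.26, SE 0.101, limma adjusted p = 0.1643). Without labelled Nrip1KO trained replicate 2 the difference of Gabarapl1 was 0.14, and it ran up to 0.36 with another library left out. The lowest of the labelled Nrip1KO values for Gabarapl1 was within 1 FPKM of the highest labelled Ctrl value.

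Bnip3, Sqstm1 and Foxo4 overlapped between the labelled genotypes after training. Bnip3 was at 142, 140 and 134 FPKM in labelled Ctrl trained and at 116, 146 and 133 FPKM in labelled Nrip1KO trained libraries, with a log2 difference of -0.08 and a 95% interval from -0.29 to 0.12. Sqstm1 was at 269, 276 and 308 against 289, 303 and 253 FPKM. Foxo4 was at 63.3, 61.2 and 71.7 against 61.1, 69.5 and 66.1 FPKM. Whether the difference between the labelled genotypes itself changed with training is the question of the interaction, given after the training comparisons.

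Training within each labelled genotype was compared next. With limma, 0 of 10 members passed in labelled Ctrl and 0 of 10 in labelled Nrip1KO muscle, where 0% of all genes passed in either. At an unadjusted p under 0.05, 2 members passed in labelled Ctrl, Fbxo30 and Sqstm1, against 8.33% of all genes, and 1 passed in labelled Nrip1KO, Bnip3, against 12.1% of all genes. The median log2 difference of the members was 0.056 in labelled Ctrl and 0.162 in labelled Nrip1KO muscle, where those of all genes were 0.002 and 0.009. In labelled Nrip1KO, 10 of 10 members had a positive log2 difference, and 9 of 10 after rescaling to the same nuclear sum, where Fbxo30 turned to -0.005. Without labelled Nrip1KO trained replicate 2, Fbxo30 (-0.048), Gabarapl1 (-0.039) and Trim63 (-0.067) turned below 0.

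In labelled Ctrl muscle, Fbxo30 was at 2.28, 2.37 and 2.48 FPKM in sedentary and at 3.58, 3.01 and 3.15 FPKM in trained libraries. The groups did not overlap, as in 14.3% of all genes, and the log2 difference was 0.38 (SE 0.105, limma adjusted p = 0.404). In labelled Nrip1KO muscle Fbxo30 was at 2.47, 2.43 and 2.47 FPKM in sedentary and at 2.55, 2.79 and 2.19 FPKM in trained libraries, a log2 difference of 0.02. Sqstm1 in labelled Ctrl muscle had a log2 difference of -0.20 (SE 0.0791, limma adjusted p = 0.5285), again without overlap. Gabarapl1 did not overlap there either, with a log2 difference of -0.14.

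Bnip3 in labelled Nrip1KO muscle was at 104, 92.4 and 113 FPKM in sedentary and at 116, 146 and 133 FPKM in trained libraries. Its log2 difference was 0.35 (SE 0.0933, limma adjusted p = 0.236), without overlap, as in 16.9% of all genes. In labelled Ctrl muscle the log2 difference was 0.03. The trained values of Bnip3 in labelled Nrip1KO muscle thus lay in and around the range of labelled Ctrl muscle, from 130 to 142 FPKM over its 6 libraries. The sedentary labelled Nrip1KO libraries enter both this comparison and the one between sedentary genotypes, so low values in them count in both.

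Single trained libraries stood high for Foxo1, Foxo3 and Fbxo32. Foxo1 was at 2.53, 2.48 and 2.83 FPKM in labelled Ctrl sedentary and at 2.43, 8.81 and 3.83 FPKM in labelled Ctrl trained libraries, a log2 difference of 0.66 (SE 0.339, limma adjusted p = 0.6542) that was 0.20 without replicate 2 of labelled Ctrl trained. Foxo3 was highest in the same library, at 6.34 FPKM, with 3.76 and 5.32 FPKM in the other labelled Ctrl trained libraries. Fbxo32 was at 14.3, 29.1 and 17.5 FPKM in labelled Nrip1KO trained libraries, and at no more than 19.0 FPKM in any other group. Its log2 difference with training in labelled Nrip1KO muscle was 0.45 (SE 0.222, limma adjusted p = 0.4389), and 0.17 without replicate 2 of labelled Nrip1KO trained.

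In the interaction, which tests whether the training differences of the labelled genotypes differ, 0 of 10 members passed with limma, and 0% of all genes did. At an unadjusted p under 0.05, 4 members passed, against 7.76% of all genes. These were Bnip3 (0.32, SE 0.132), Foxo4 (0.28, SE 0.119), Sqstm1 (0.28, SE 0.112) and Fbxo30 (-0.36, SE 0.148), all on the log2 scale with adjusted p from 0.6206 to 0.6267 (limma). For Bnip3 and Foxo4 the sedentary labelled Nrip1KO libraries had the lowest group mean. For Sqstm1 the sedentary labelled Ctrl libraries stood high, with a mean of 326 FPKM against 265, 284 and 282 FPKM in labelled Nrip1KO sedentary, Ctrl trained and Nrip1KO trained libraries, and for Fbxo30 the trained labelled Ctrl libraries were the high group. Trim63 had an interaction of -0.03 with a 95% interval from -0.48 to 0.42.

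**Figure D3:**
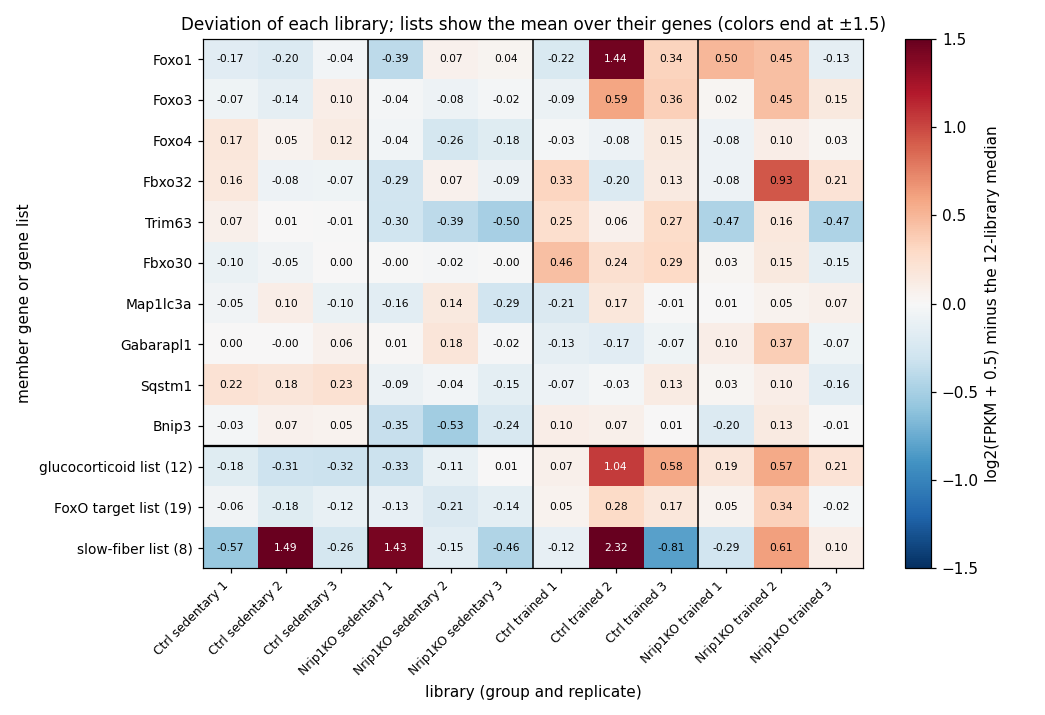
Deviation of each library (columns, by group and replicate) from the median of the 12 libraries on the log2(FPKM + 0.5) scale, for the 10 members and for 3 gene lists shown as the mean over their genes. Labelled Ctrl trained replicate 2 stands high for Foxo1 (8.81 FPKM), the glucocorticoid list (1.04) and the slow-fiber list (2.32), and labelled Nrip1KO trained replicate 2 for Fbxo32 (0.93).

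Replicate 2 of labelled Ctrl trained and replicate 2 of labelled Nrip1KO trained stood apart for several members. The first was the highest of the 12 libraries for Foxo1, Foxo3 and Map1lc3a. The second was the highest for Fbxo32, Gabarapl1 and Bnip3. Both are trained libraries with the same replicate number, and they are of different labelled genotypes. A list of 12 glucocorticoid-responsive genes was set beside them. Its mean deviation was highest in labelled Ctrl trained replicate 2, at 1.04, followed by labelled Ctrl trained replicate 3 at 0.58 and labelled Nrip1KO trained replicate 2 at 0.57. The 6 sedentary libraries lay between -0.33 and 0.01. Of the 12 genes, 12 had a positive log2 difference with training in labelled Ctrl muscle, with a median of 0.74, and 10 in labelled Nrip1KO muscle, with a median of 0.34. None was called with limma. At an unadjusted p under 0.05, 6 of the 12 passed in labelled Ctrl, against 8.33% of all genes, and 5 in labelled Nrip1KO muscle, against 12.1%. The list was chosen with earlier results of these data known, so these shares are a description and not a test. Under the 3 other scalings 12 of 12 stayed positive in labelled Ctrl and 9 to 11 of 12 in labelled Nrip1KO muscle. Fkbp5, a chaperone gene of this list named after its values were seen, was at 9.54, 49.3 and 15.9 FPKM in labelled Ctrl trained and at 12.9, 28.3 and 19.2 FPKM in labelled Nrip1KO trained libraries.

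Slow-fiber transcripts also differed between these libraries. The summed level of the 8 slow-fiber markers was 722 FPKM in labelled Ctrl trained replicate 2 and 332 FPKM in labelled Nrip1KO trained replicate 2, against 116 to 248 FPKM in the other 4 trained libraries. In sedentary libraries it ran from 128 to 433 FPKM, and it was 418 and 433 FPKM in libraries where Foxo1 was at 2.48 and 2.12 FPKM. The part of slow fibers or glucocorticoid-responsive genes in the high Foxo1 and Fbxo32 values was not tested. Without both libraries, the log2 difference of Fbxo32 between labelled genotypes in trained muscle went from 0.27 to -0.16 and that of Foxo1 from -0.25 to 0.13. Trim63 then had a difference of -0.73 in trained muscle (limma, adjusted p = 0.003513), and it passed in sedentary muscle as well (adjusted p = 0.01125). This omission was chosen after seeing the data.

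Across the 12 libraries the members did not vary as 1 block. As a description, over 12 libraries that share groups and depth, the highest Pearson correlation of log2 levels between 2 members was 0.81, for Foxo1 and Foxo3. Bnip3 correlated with Foxo4 at 0.71 and with Trim63 at 0.71, and at 0.33 and 0.43 after each group's mean was removed, while Foxo1 and Foxo3 were then at 0.72. Trim63 and Fbxo32 correlated at 0.41 over the libraries and at 0.83 within groups in the same way. Gabarapl1 was likewise closer to Sqstm1 (0.83 within groups, 0.27 over the libraries) and to Trim63 (0.81 and -0.11). The lowest correlation within groups was -0.45, for Fbxo30 and Map1lc3a. The genes whose pattern over the 12 libraries was most like that of each member were found in the same way. They were Wbp1l (0.94) for Foxo1, Plin4 (0.95) for Foxo3, and Ubl3 (0.96) for Foxo4. For the ligases they were Klhl18 (0.91) for Fbxo32, Ppfibp1 (0.94) for Trim63 and Dis3l (0.89) for Fbxo30. For the autophagy genes they were Fitm1 (0.94) for Map1lc3a, Ogfr (0.89) for Gabarapl1, Ftl2-ps (0.90) for Sqstm1 and Eif3c (0.93) for Bnip3. Ftl2-ps is named as a ferritin pseudogene, whose reads may come from its parent gene.

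The rest of the pathway was read from 8 lists of 121 other genes, all of which were tested. The lists were chosen with earlier results of these data known, so their shares are descriptions. The glucocorticoid list shares genes with the other lists, so the counts of the lists are not independent. Between the labelled genotypes, 3 of 121 (2.48%) were called in sedentary muscle, all lower in labelled Nrip1KO, and 7 of 121 (5.79%) in trained muscle, of which 5 were lower and 2 higher. These shares lay near the 3.51% and 5.98% of all genes. With training, and for the interaction, 0 of 121 were called with limma. At an unadjusted p under 0.05, 13 of 121 (10.7%) passed in labelled Ctrl, against 8.33% of all genes, and 31 (25.6%) in labelled Nrip1KO, against 12.1%. For the interaction 10 (8.26%) did, against 7.76%. The medians of the 121 genes between labelled genotypes were -0.058 in sedentary and -0.03 in trained muscle.

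Ulk2 was the only one of the 121 genes called between the labelled genotypes in both states. It encodes a kinase that starts autophagosome formation. It was at 19.6, 17.6 and 17.9 FPKM in labelled Ctrl sedentary and at 13.7, 12.9 and 14.5 FPKM in labelled Nrip1KO sedentary libraries. It was at 17.9, 17.9 and 19.0 FPKM in labelled Ctrl trained and at 14.2, 14.8 and 14.0 FPKM in labelled Nrip1KO trained libraries. All 6 labelled Nrip1KO libraries lay below all 6 labelled Ctrl libraries. The log2 difference was -0.41 (SE 0.0721, limma adjusted p = 0.01097) in sedentary and -0.34 (SE 0.0721, limma adjusted p = 0.01937) in trained muscle. The sedentary call was lost without labelled Ctrl sedentary replicate 1 (limma adjusted p = 0.05939). The trained call was lost without labelled Ctrl trained replicate 1 (0.05205) or 3 (0.07902) or labelled Nrip1KO trained replicate 3 (0.0825). Ulk1, Ulk2 and the other 16 initiation genes together had a median of -0.01 in sedentary and 0.10 in trained muscle.

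Tfeb and Sesn3 passed in sedentary muscle, and neither call was firm. Neither passed in trained muscle. Their interactions were 0.44 (limma adjusted p = 0.6053) and 0.10 (0.9266) on the log2 scale. Tfeb, the transcription factor of lysosome and autophagy genes, was at 48.2, 46.0 and 44.8 FPKM in labelled Ctrl and at 34.1, 35.1 and 29.7 FPKM in labelled Nrip1KO sedentary libraries (log2 difference -0.49, SE 0.116, limma adjusted p = 0.04423). In trained libraries Tfeb was at 35.1, 48.3 and 46.7 against 38.1, 43.5 and 43.2 FPKM. Sesn3, a FoxO target that restrains mTORC1, was at 1.93, 2.08 and 1.97 FPKM in labelled Ctrl and at 1.41, 0.984 and 1.39 FPKM in labelled Nrip1KO sedentary libraries (log2 difference -0.51, SE 0.122, limma adjusted p = 0.04523). In trained libraries Sesn3 was at 2.02, 1.88 and 1.92 against 1.33, 1.45 and 1.23 FPKM, again lower in labelled Nrip1KO without overlap (log2 difference -0.41, limma adjusted p = 0.07476). The Tfeb call was lost in 10 of 12 fits that each left out 1 library, all but labelled Ctrl trained replicate 1 or 2, with adjusted p up to 0.1585. The Sesn3 call was lost in all 12, with adjusted p up to 0.1343.

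In trained muscle, the 5 lower called genes were Ulk2 of the initiation list, Lamp2 of the lysosome list, Atg4a and Atg12 of the conjugation list and Fundc1 of the receptor list. Lamp2, a lysosomal membrane protein needed for fusion with autophagosomes, was at 32.7, 31.1 and 29.3 FPKM in labelled Ctrl trained and at 23.2, 23.4 and 22.5 FPKM in labelled Nrip1KO trained libraries. Its log2 difference of -0.42 (SE 0.0675, limma adjusted p = 0.005258) was kept in all 12 fits that left out 1 library, but not on rescaling to the same sum (0.08634) or the same nuclear sum (0.07766). In sedentary libraries the difference of Lamp2 was -0.11, and the interaction was -0.31 with a limma adjusted p of 0.5609. Atg4a, a protease that processes LC3 and GABARAP proteins, was at 9.43, 9.09 and 8.45 against 6.86, 5.59 and 6.17 FPKM (log2 difference -0.50, SE 0.095). Its limma adjusted p was 0.01138, and 0.05196 without labelled Nrip1KO trained replicate 2. Atg12, the ubiquitin-like partner of ATG5, had a log2 difference of -0.40 (limma adjusted p = 0.0314), and Fundc1, a mitophagy receptor as Bnip3 is, one of -0.32 (limma adjusted p = 0.02743). Single omissions ended the Atg12 call in 5 fits of 12 (adjusted p up to 0.1188) and the Fundc1 call in 4 (up to 0.1132), each of a trained library.

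The 2 called genes with higher levels were Fbxo21, from the FoxO target list, and Trim72, from the ligase list. Fbxo21, an F-box gene, was at 3.95, 3.60 and 3.95 FPKM in labelled Ctrl trained and at 6.46, 6.63 and 5.06 FPKM in labelled Nrip1KO trained libraries (log2 difference 0.59, SE 0.119, limma adjusted p = 0.0158). That p was 0.0701 without labelled Nrip1KO trained replicate 2. Trim72, the membrane repair protein MG53, was at 148, 155 and 141 against 180, 187 and 183 FPKM (log2 difference 0.31, limma adjusted p = 0.04186), and the call was lost in 7 of 12 fits that left out 1 library, with adjusted p up to 0.1409. Trim63 and Fbxo30 had log2 differences of -0.45 and -0.32 between the same libraries and did not pass.

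**Figure D4:**
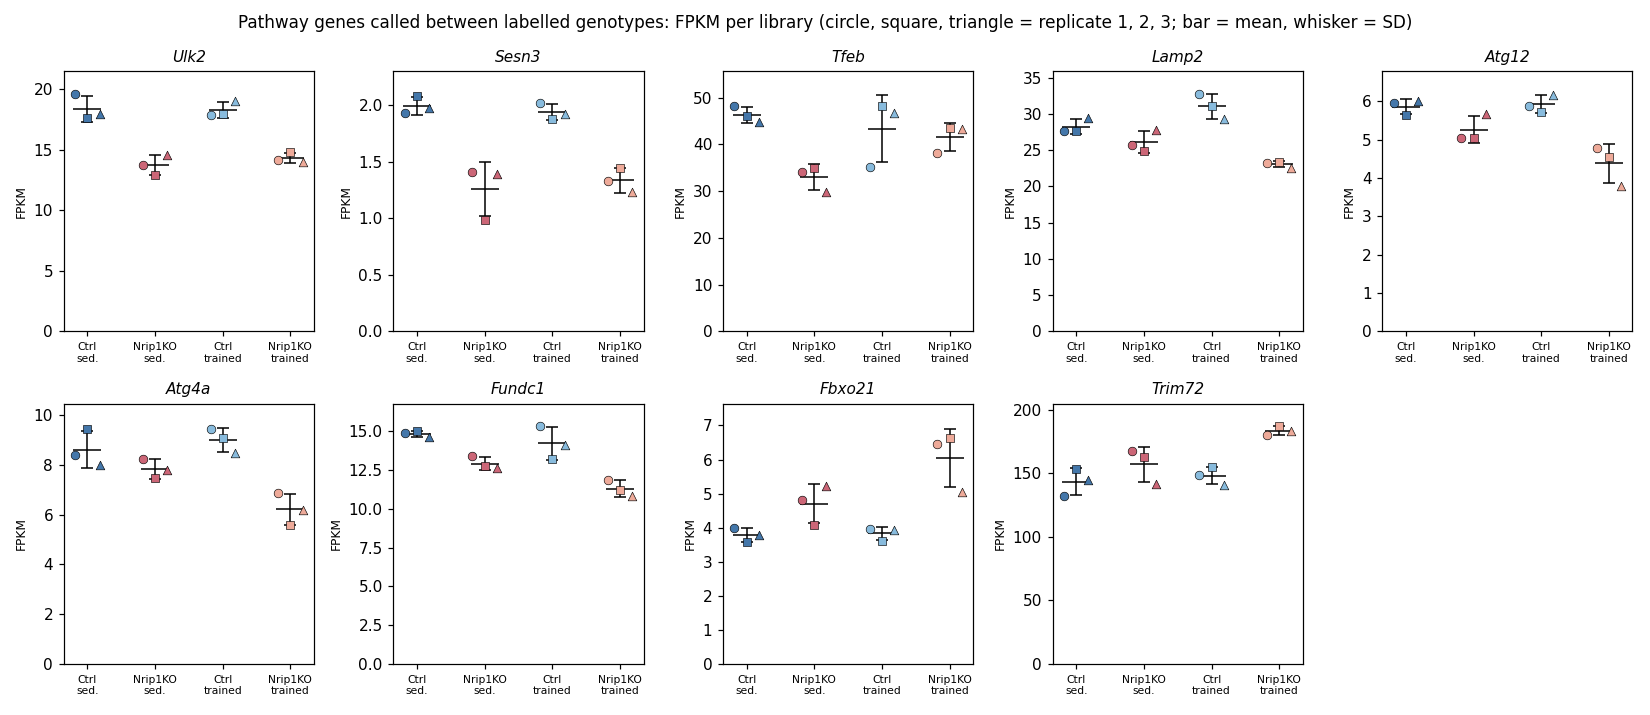
FPKM (vertical axis, from 0) of the 9 pathway genes called between labelled genotypes, in each library by group. Symbols are replicates 1, 2 and 3, the bar is the mean and the whisker the SD (n = 3). Ulk2 lies between 12.9 and 14.8 FPKM in all 6 labelled Nrip1KO libraries and between 17.6 and 19.6 FPKM in all 6 labelled Ctrl libraries, while Tfeb is low only in the sedentary labelled Nrip1KO libraries and 1 labelled Ctrl trained library.

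The groups of the pathway are given by their counts on both sides. Of 19 FoxO target genes, 14 were below 0 in labelled Nrip1KO sedentary muscle with a median of -0.088, and 10 of 19 were below 0 on rescaling to the same nuclear sum. With training, 15 of 19 were above 0 in each labelled genotype, and none was called. Of 14 autophagy receptor genes, 10 were below 0 in labelled Nrip1KO sedentary muscle with a median of -0.16, the lowest of the 8 lists there. On rescaling to the same nuclear sum 9 were, with a median of -0.081, and in trained muscle 10 of 14 were above 0 with a median of 0.037. Among them Bnip3l, the close relative of Bnip3 named after its values were seen, was at 44.8, 39.9 and 45.6 FPKM in labelled Ctrl and at 33.4, 37.8 and 28.3 FPKM in labelled Nrip1KO sedentary libraries. Of 18 lysosome genes, 13 were below 0 with a median of -0.125, and on rescaling to the same nuclear sum 12 were. The 14 genes upstream of FoxO, which include the insulin receptor and AKT genes, were split evenly with a median of 0.015, and none was called in any comparison. The 17 other ligase and ubiquitin genes had medians between -0.036 and 0.03 in all 5 contrasts.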

How the data were processed

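EDL RNA was sequenced from unstranded libraries, so reads of a gene and of an antisense partner could not be told apart. The authors quantified reads with Salmon 1.10.2 on mm10 and summed them to genes with tximport. Per the file headers and methods, the authors deposited FPKM per gene and library. They also deposited log2 fold changes of their comparisons and adjusted p-values from DESeq2 1.44.0, which were not used here. The annotation and the function that gave FPKM are not given in the sources used here. Libraries had been scaled between each other, since the median ratio to the typical library was 1.003 in all 12.

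Groups came from the sample labels. The labels do not say that replicates were separate animals, so p-values measure only the spread between these libraries. Low FPKM values of genes with 1 transcript step by what 1 fragment is worth, and this step gave the effective depth. On that scale 99.1% to 99.8% of the values were whole to within 0.15, where 30% would be by chance. A count of 3 fragments on 2 kb of effective length corresponded to 0.0514 to 0.0749 FPKM. Such limits cover counting error only.

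A model with 4 group means over 12 libraries was fitted to log2(FPKM + 0.5) with limma 3.58.1 (R 4.3.3, trended prior), for the 12744 genes averaging at least 0.5 FPKM. Fold changes on this scale understate those of low genes. Two-sided p-values were adjusted by Benjamini-Hochberg per contrast, the thresholds were an adjusted p-value of 0.05 and a fold of 1.2 as in the study, and no fold was asked of the interaction. The fit was tested on simulated libraries with normal noise around the measured gene means and spreads, for the sedentary comparison. Of 100 genes given a log2 difference of 0.5, 44 were called, so differences of this size were often missed in the simulation. Of 100 given a log2 difference of 1, 83 were called, and of 12544 given none, 5 were. The changed genes were drawn above a higher mean FPKM than the filter. Such rates also depend on the share of genes that change, so those in the measured libraries may differ. Named genes were the 10 members, called genes of 8 pathway lists (at most 6 per list and contrast), and genes of highest correlation with each member. The members and lists were chosen with earlier results of these data known. Of the 17752 identifiers, 17745 matched GENCODE M21 on GRCm38, and coordinates are 1-based. Alternatives changed the pseudocount, the filter, the scaling, the variance prior, the libraries fitted and a replicate block. The replicate numbers were not used to pair the samples. The correlation of deviations between same-numbered libraries ran from -0.105 to 0.241 over 18 pairs, of which 5 were over 0.1. Between libraries of different numbers it reached 0.196. This range cannot decide whether some same-numbered libraries share an effect.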

Additional observations from a re-analysis of the deposited data

How the results depend on the processing

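The labelled direction of Bnip3, Trim63, Sqstm1 and Foxo4 in sedentary muscle was kept under every alternative run, but the number of members called there was not. It was 1 as reported, 0 with no filter (Bnip3 adjusted p = 0.0503 with limma), an untrended robust prior (0.07985), only the 6 libraries compared (0.1089), quantile normalization (0.1137) or rescaling to the same nuclear sum (0.2659), and 2 for genes averaging at least 5 FPKM or rescaling to the same sum, where Sqstm1 passed as well (0.04952 and 0.03189). It ranged from 0 to 2 with 1 library left out and was 2 without both trained replicates 2. Between labelled genotypes in trained muscle it was 0, ranged from 0 to 1 with 1 library left out, and was 1 without both. With training and for the interaction it was 0 in every alternative run. The cause was not tested. Whether the replicate numbers pair the libraries is not known. With a replicate block 0 members were called in sedentary muscle (Bnip3 adjusted p = 0.05891 with limma), while 441 and 756 of all genes were called between labelled genotypes.

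Over all genes, calls between labelled genotypes went from 447 to 166 (sedentary) and from 762 to 445 (trained) with only the 6 libraries compared, and to 333 in trained muscle without both replicates 2. With 1 library left out they ranged from 163 to 478 and from 315 to 874. With training, 0 calls as reported became up to 8 in labelled Ctrl (mean of at least 5 FPKM) and 150 in labelled Nrip1KO (same sum), and with 1 library left out ranged from 0 to 30 and from 0 to 4. Rescaling to the same sum moved the median of all genes to -0.139 (sedentary genotypes), 0.165 (training in labelled Nrip1KO) and 0.205 (interaction), and the share of calls that were higher from 54.8% to 18.6% in sedentary and from 53.7% to 80.9% in trained muscle. With the same nuclear sum these shares were 82.7% and 75.8%.

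Small member differences changed sign. With the same sum these were, between labelled genotypes in sedentary muscle, Fbxo30 (-0.087), Foxo1 (-0.087) and Gabarapl1 (-0.118), in trained muscle Sqstm1 (0.048), with training in labelled Ctrl Bnip3 (-0.014), and for the interaction Foxo3 (0.128) and Trim63 (0.192). With the same nuclear sum they were Foxo3 in sedentary (0.06) and Sqstm1 in trained muscle (0.021), and with training Fbxo30 in labelled Nrip1KO (-0.005) and Map1lc3a in labelled Ctrl (0.011). With quantile normalization they were Foxo4 (-0.024) and Map1lc3a (-0.011) in trained muscle and Map1lc3a with training in labelled Ctrl (0.037). Without both replicates 2 they were Fbxo32 (-0.163), Foxo1 (0.127) and Foxo4 (-0.083) in trained muscle, Fbxo30 (-0.048), Gabarapl1 (-0.039) and Trim63 (-0.067) with training in labelled Nrip1KO, and Fbxo32 (-0.056) and Foxo1 (0.082) for the interaction.

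With 1 library left out, differences that changed sign ranged as follows on the log2 scale. Between labelled genotypes in sedentary muscle, they were Foxo1 -0.035 to 0.192, Foxo3 -0.063 to 0.054, Gabarapl1 -0.024 to 0.076 and Map1lc3a -0.21 to 0.006. Between labelled genotypes in trained muscle, they were Bnip3 -0.162 to 0.006, Fbxo32 -0.019 to 0.481, Foxo1 -0.618 to 0.216, Foxo3 -0.27 to 0.071, Foxo4 -0.041 to 0.073, Map1lc3a -0.037 to 0.154 and Sqstm1 -0.072 to 0.059. With training in labelled Ctrl, they were Fbxo32 -0.038 to 0.225 and Map1lc3a -0.096 to 0.095. With training in labelled Nrip1KO, they were Fbxo30 -0.048 to 0.098, Gabarapl1 -0.039 to 0.18 and Trim63 -0.067 to 0.248. For the interaction, they were Foxo1 -0.663 to 0.171, Foxo3 -0.258 to 0.083 and Trim63 -0.237 to 0.078. These ranges widen without both replicates 2 for Fbxo32 (-0.056 to 0.588) and Trim63 (from -0.304) in the interaction. Between labelled genotypes in trained muscle they widen for Fbxo32 (from -0.163), Foxo4 (from -0.083) and Sqstm1 (from -0.092).

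Of the 9 pathway genes, rescaling to the same nuclear sum ended the calls of Ulk2 (adjusted p = 0.1969 in sedentary and 0.1931 in trained muscle), Tfeb (0.05113), Sesn3 (0.1987), Lamp2 (0.07766), Atg12 (0.1667), Fundc1 (0.2002) and Fbxo21 (0.05358), all with limma. Rescaling to the same sum ended those of Ulk2 in trained muscle (0.262), Lamp2 (0.08634), Atg12 (0.2085) and Fundc1 (0.2493). Fitting only the 6 libraries compared ended those of Ulk2 in sedentary muscle (0.08832), Tfeb (0.05405), Sesn3 (0.1686), Atg12 (0.09823), Fundc1 (0.09417) and Fbxo21 (0.05475). Without both replicates 2, the calls of Ulk2 in trained muscle (0.07542), Tfeb (0.05472), Sesn3 (0.07393), Atg12 (0.1003), Atg4a (0.09561), Fundc1 (0.07096), Fbxo21 (0.1331) and Trim72 (0.137) were lost. A replicate block ended those of Tfeb (0.05112), Sesn3 (0.07482) and Atg12 (0.05404), no filter those of Tfeb (0.05627), Sesn3 (0.06426) and Trim72 (0.05019), and the untrended prior those of Tfeb (0.07674) and Trim72 (0.07663). Quantile normalization left Trim72 at a log2 difference of 0.25, under the fold asked.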
